A study of Arabidopsis thaliana with 4 samples.

Results

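The RPW8 homologs and the RPW8-domain helper NLRs of Arabidopsis thaliana are 9 genes, taken here by their identifiers from the 24252 genes listed in at least 1 of 4 RNA-seq libraries. They are HR1 (AT3G50450), HR2 (AT3G50460), HR3 (AT3G50470) and HR4 (AT3G50480), a tandem cluster on chromosome 3, then the ADR1 family with ADR1 (AT1G33560), ADR1-L1 (AT4G33300) and ADR1-L2 (AT5G04720), and the NRG1 pair AT5G66900 and AT5G66910. The libraries came from whole 7-day-old seedlings of the Col-0 ecotype, 2 labelled WT and 2 labelled fer-4, in which both copies of the receptor kinase gene FERONIA (FER) are mutant. All seedlings stood on upright plates of diluted MS medium in days of 16 h light and 8 h darkness, and none was treated. The 9 genes were selected on their FPKM values with the difference between these same WT and fer-4 libraries known. Their differences are therefore given as a description, without p-values.

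RPW8 proteins are small membrane-associated proteins with a coiled coil, and in some natural accessions RPW8.1 and RPW8.2 give broad resistance to powdery mildew fungi. Col-0 carries the HR genes at that locus. In crosses between accessions, some alleles of HR4 meet alleles of the NLR gene RPP7 and set off an autoimmune reaction. NLR proteins are intracellular immune receptors. Most of them sense a pathogen effector, whereas the helper NLRs carry an RPW8-like N-terminal domain, act downstream of the sensors and open calcium channels in the plasma membrane. The ADR1 helpers work with the lipase-like proteins EDS1 and PAD4, and the NRG1 helpers with EDS1 and SAG101.

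Levels are the deposited FPKM values, that is fragments per kilobase of transcript scaled to library size, so they can be compared between genes per length. The files hold no counts. The lowest values, multiplied by transcript length, had medians of 46.2 to 50.2 FPKM times bp in a window chosen after the data were seen. In the adjoining window the medians were 97.5 to 99.9. The windows partly fix these medians, so the second is no check on the first. Taking the first as 1 fragment gives an estimate of 19900000 to 21600000 fragments per library. FER measured 89.0 and 91.9 FPKM in WT and 60.6 and 62.1 in fer-4 (limma, log2 fold change -0.55 ± 0.08 SE, adjusted p = 0.00638; 0.0593 without WT replicate 2). Markers of green tissue summed to between 9200 and 9680 FPKM in WT and between 6720 and 8480 in fer-4, and those of root to 1780 in both WT libraries and 2090 and 2410 in fer-4. All 3 green-tissue and all 4 root markers were listed in every library, and the seed storage genes CRA1 and CRC were listed in none. RBCS1A made up most of the green sum (8980 and 9490 FPKM in WT, 8350 and 6580 in fer-4). CAB3, a light-harvesting gene, fell (limma adjusted p = 0.0107), whereas LHCB2.1, another, measured 4.97 and 4.14 in WT and 7.14 and 5.31 in fer-4 (limma adjusted p = 0.158). PYK10 carried the root sum (1690 and 1700 in WT, 2010 and 2330 in fer-4), and the fer-4 to WT ratio was 0.912 for CASP1, 1.01 for COBL9 and 1.05 for SCR. In whole seedlings, fewer cells of a type and less RNA per cell cannot be told apart, and the part of tissue makeup in the differences below was not tested. The labels do not say whether replicates were separate cultures, so p-values measure the spread between these libraries only, which may be technical.

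HR4 stood far above its WT level in the fer-4 libraries, while HR1, HR2 and HR3 measured at most 2.98 FPKM in any library. HR4 measured 0.333 and 2.51 FPKM in WT replicates 1 and 2, and 104 and 191 FPKM in fer-4 replicates 1 and 2. The groups were far apart, and within each genotype replicate 2 was the higher library. In fragments, the estimate was 7.0 and 53.9 in WT and 2327 and 3914 in fer-4. The mean went from 1.42 ± 1.54 to 148 ± 61.1 FPKM (SD, n = 2), a ratio of means of 104 and a log2 fold change of 6.04 ± 0.48 (limma's moderated SE) on the scale of log2(FPKM + 1). The ratio between replicates 2 and 1 was 7.53 in WT and 1.83 in fer-4. Among the genes listed in each library, HR4 stood at the 9.4th and 26.5th percentile in WT and at the 94.7th and 97.4th in fer-4.

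**Figure D1:**
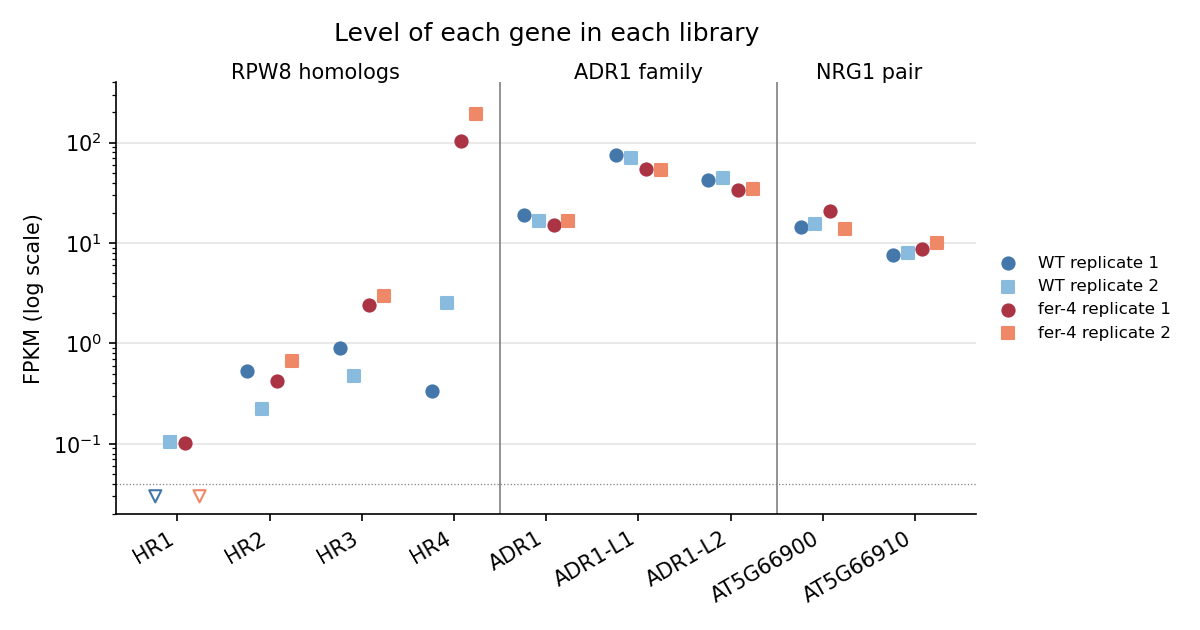
FPKM on a log axis for each of the 9 genes in each of the 4 libraries, with 1 point per library; open triangles below the dotted line mark a gene listed at 0. HR4 lies between 0.333 and 2.51 FPKM in WT and at 104 and 191 FPKM in fer-4, and the 5 helper genes lie between 7.62 and 75.7 FPKM.

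HR4 is also 1 of 131 genes that reached 5 FPKM in each fer-4 library while the mean of both WT libraries held under 5% of their fer-4 mean. Of these, 66 were not listed in WT replicate 1 and 9 were not listed in WT replicate 2, and 111 were higher in WT replicate 2 against 17 in WT replicate 1. Chosen on WT replicate 2 alone, the set had 121 genes, with 62 missing from WT replicate 1 and 9 missing from WT replicate 2. HR4 in WT replicate 2 was at 2.40% of its level in fer-4 replicate 1. Chosen on WT replicate 1 alone, the set had 141 genes, HR4 among them, with a median of 3.22% for this share (quartiles 2.23% and 4.49%). The part of this difference between the WT libraries in the HR4 values was not tested. Without WT replicate 1 the log2 fold change of HR4 was 5.34, and without WT replicate 2 it was 6.74.

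HR3, the neighbour of HR4, measured 0.891 and 0.469 FPKM in WT and 2.41 and 2.98 in fer-4. Both fer-4 libraries lay above both WT libraries, by a ratio of means of 3.96 (log2 fold change 1.14 ± 0.20), at an estimated 8.2 to 49.9 fragments per library. HR2 measured 0.527 and 0.223 FPKM in WT and 0.424 and 0.669 in fer-4, so the groups overlapped. HR1 was listed at 0 in WT replicate 1 and fer-4 replicate 2, and at 0.104 and 0.101 FPKM in the other 2 libraries, about 1 fragment each. HR1 and HR2 both fell under the filter of a mean of 1 FPKM for the fit over all genes, so neither was tested in it. At this depth small differences in HR1 or HR2 cannot be detected.

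The 4 HR genes lie head to tail on the plus strand of chromosome 3 within 12187 bases, from 18722234 (the start of HR1) to 18734420 (the end of HR4) in RefSeq TAIR10.1. HR2 and HR3 are 124 bases apart, and HR3 and HR4 are 2523 bases apart. Each is protein-coding, with 2 coding exons and a coding sequence of 570 (HR1), 618 (HR2), 642 (HR3) or 603 (HR4) bases. The coding sequences of HR1, HR2 and HR3 were 77.4% to 79.1% identical to each other over the aligned bases, and that of HR4 was 61.3% to 66.0% identical to theirs. The longest exact run that HR4 shares with another HR gene is 13 bases, against 26 bases between HR1 and HR2. A search of the chromosomes with the HR4 coding sequence found no alignment outside HR4 at an E-value of 1e-05, whereas HR2 and HR3 are each other's best match, at 82.7% over 284 bases. How reads divide among HR1, HR2 and HR3 is thus less certain than for HR4, and the deposited loci of HR1 and HR2 span the coding part alone, without UTRs.

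The stretches just before the RefSeq starts of the HR genes are shown because HR4 and its neighbours in the cluster differ in level. Capitals mark matches, on either strand, to the W-box cores TTGACC and TTGACT, which WRKY factors bind, and to TGACG, which TGA factors bind. For HR3 only the part between the end of HR2 and the start of HR3 is given.
HR1, chr3:18721984-18722233, plus strand: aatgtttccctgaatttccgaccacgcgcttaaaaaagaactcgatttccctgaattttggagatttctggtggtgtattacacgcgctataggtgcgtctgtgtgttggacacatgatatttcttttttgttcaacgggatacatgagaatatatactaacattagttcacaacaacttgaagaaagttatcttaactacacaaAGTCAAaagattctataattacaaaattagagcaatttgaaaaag
HR2, chr3:18727416-18727665, plus strand: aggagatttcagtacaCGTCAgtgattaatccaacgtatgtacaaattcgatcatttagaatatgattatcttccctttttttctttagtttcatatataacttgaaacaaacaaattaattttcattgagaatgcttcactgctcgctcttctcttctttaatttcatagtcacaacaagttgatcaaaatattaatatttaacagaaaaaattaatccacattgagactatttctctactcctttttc
HR3, chr3:18728811-18728934, plus strand: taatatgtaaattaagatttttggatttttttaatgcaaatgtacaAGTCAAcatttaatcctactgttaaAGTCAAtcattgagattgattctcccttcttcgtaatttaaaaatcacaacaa
HR4, chr3:18732771-18733020, plus strand: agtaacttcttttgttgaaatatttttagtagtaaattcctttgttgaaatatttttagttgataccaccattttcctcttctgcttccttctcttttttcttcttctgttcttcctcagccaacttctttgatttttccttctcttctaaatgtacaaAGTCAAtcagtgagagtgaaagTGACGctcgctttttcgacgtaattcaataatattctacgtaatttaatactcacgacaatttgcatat

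In the 250 bases before the start, TTGACT was found at 1 place in HR1, at 2 in HR3 and at 1 in HR4, each time on the minus strand, and TGACG at 1 place in HR2 and at 1 in HR4. No match overlapped another. TTGACC or TTGACT was present in 28.4% of the 27443 protein-coding promoters of that length (12.2% and 19.1% singly) and TGACG in 18.6%. In HR4 the TTGACT match begins 91 bases and the TGACG match 69 bases before the start. HR1, which was near 0 in every library, also holds a W-box core. Among the helper genes, AT5G66910 holds 1 TTGACC, 1 TTGACT and 1 TGACG match, and ADR1, ADR1-L1, ADR1-L2 and AT5G66900 hold none of the 3 motifs in that window. The window of ADR1-L1 has no stretch next to the start that is free of another annotated gene, and that of AT5G66900 has 171 such bases.

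Of the 10 annotated genes beside the HR cluster, 5 on each side, 5 were tested, and 2 of them rose and 0 fell. Over all tested genes 14.3% rose and 9.0% fell, and nothing is read from so small a count. On the far side of HR4, beyond the pseudogene AT3G50490 (listed at 0.140 FPKM in fer-4 replicate 2 alone), SNRK2.2, a kinase gene of abscisic acid signalling, went from 44.9 and 44.7 FPKM in WT to 98.8 and 103 in fer-4 (1.15 ± 0.08, limma adjusted p = 0.000564). AT3G50520 went from 19.3 and 16.1 to 31.3 and 31.6 FPKM (0.80 ± 0.11, limma adjusted p = 0.00473). On the other side MES10, a methyl esterase gene next to HR1, measured 10.2 and 12.0 FPKM in WT and 12.9 and 19.0 in fer-4 and did not pass the threshold. FER (AT3G51550) is also a gene of chromosome 3. Identifiers are numbered along the chromosome, so FER lies near the HR cluster (AT3G50450 to AT3G50480), at a distance that was not measured. The part of sequence inherited together with the fer-4 allele in the differences of this region, or of any other region, was not tested.

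**Figure D2:**
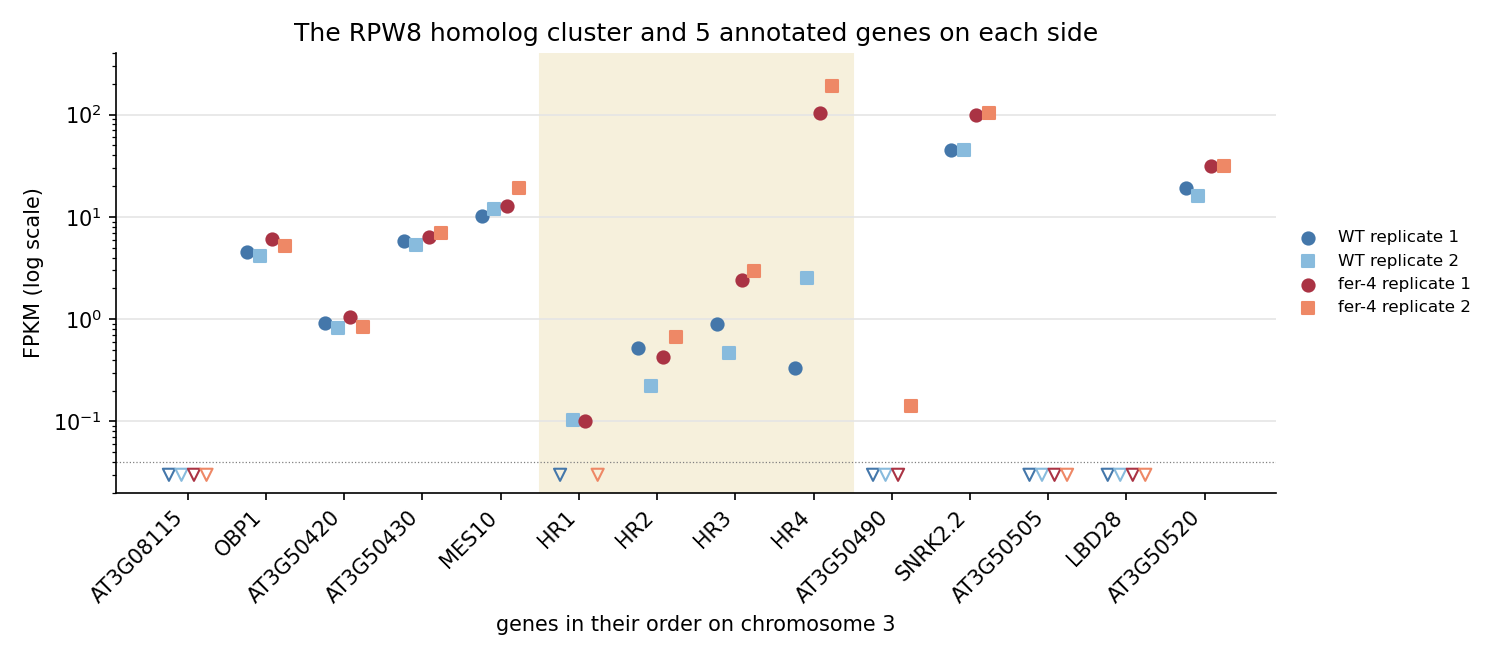
FPKM on a log axis for HR1 to HR4 (shaded) and the 5 annotated genes on each side, in their order on chromosome 3, with 1 point per library; open triangles mark a gene listed at 0. HR4 moves from 0.333 and 2.51 to 104 and 191 FPKM, and SNRK2.2 from 44.9 and 44.7 to 98.8 and 103 FPKM.

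The genes whose levels lay nearest to those of HR4 over the 4 libraries, by Euclidean distance on log2(FPKM + 1), were ZW9 (distance 1.11), SADHU1-1 (1.29), SEH (1.38), AT1G25175 (1.40) and AT1G25098 (1.40). ZW9 measured 0.676 and 5.01 FPKM in WT and 167 and 161 in fer-4. SADHU1-1, of a family of non-coding retrotransposons, measured 0 and 3.25 in WT and 88.2 and 84.6 in fer-4. SEH, a soluble epoxide hydrolase gene, measured 1.02 and 3.19 in WT and 72.8 and 88.2 in fer-4. All 4 libraries entered the distance, so this nearness is a description only, and AT1G25098 overlaps another gene.

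In the ADR1 family, ADR1-L1 and ADR1-L2 had lower levels in both fer-4 libraries than in both WT libraries. ADR1-L1 measured 75.7 and 70.2 FPKM in WT and 54.6 and 53.3 in fer-4, the mean being 1.35 times as high in WT (log2 fold change -0.43 ± 0.09). ADR1-L2 measured 42.3 and 44.0 in WT and 33.9 and 34.9 in fer-4, the mean being 1.25 times as high in WT (-0.32 ± 0.08). In both genes the genotypes did not overlap and the libraries of a genotype lay close together. ADR1, the founding member, measured 18.8 and 16.7 FPKM in WT and 15.2 and 16.7 in fer-4, so the lower WT library and the higher fer-4 library were level (-0.14 ± 0.10). The 3 genes summed to 137 and 131 FPKM in WT and to 104 and 105 in fer-4. The deposited locus of ADR1-L1 (chromosome 4, 16049573 to 16056526) also covers AT4G33290, listed at 0 in WT and at 0.0399 and 0.249 FPKM in fer-4, and AT4G33310, listed at 0 to 2.73 FPKM, and whether the counting used strand is not stated in the labels or headers.

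In the NRG1 pair, AT5G66910 lay slightly higher in both fer-4 libraries and AT5G66900 overlapped. AT5G66910 measured 7.62 and 8.02 FPKM in WT and 8.75 and 10.1 in fer-4 (0.24 ± 0.11). AT5G66900 measured 14.6 and 15.4 in WT and 20.9 and 13.9 in fer-4, so fer-4 replicate 1 lay above and fer-4 replicate 2 below the WT libraries (0.17 ± 0.18). Without fer-4 replicate 1 its value was -0.11, and without fer-4 replicate 2 it was 0.45 and past the threshold. The ratio of AT5G66900 to AT5G66910 was 1.92 and 1.91 in WT and 2.39 and 1.37 in fer-4. The coding sequences of the pair are 83.9% identical, with an exact run of 79 bases in common, so how reads divide between them is uncertain; their sum was 22.3 and 23.4 FPKM in WT and 29.6 and 24.0 in fer-4.

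Of the 9 genes, 7 passed the level filter, and among these HR3 and HR4 were called higher and ADR1-L1 and ADR1-L2 lower by limma at an adjusted p below 0.05, against 23.3% of all 19183 genes tested (14.3% higher and 9.0% lower). In 6 of the 7 the genotypes did not overlap, as in 66.1% of all tested genes. ADR1 counts among the 6 only by a difference smaller than the printed digits, with 16.7 FPKM in WT replicate 2 and in fer-4 replicate 2. HR3, with a WT mean of 0.680 FPKM, passed the filter through its fer-4 levels, and the contrast chose the genes, so nothing is read from these counts. The call of HR3 ended without WT replicate 2 (0.96), that of ADR1-L1 without WT replicate 1, WT replicate 2 or fer-4 replicate 2 (-0.37, -0.48 and -0.41), and that of ADR1-L2 without any single library (-0.35 to -0.29), in the fit with a replicate block and without limma's trend. The log2 fold change of HR4 ranged from 4.53 to 7.05 over the alternatives, given as a description.

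**Figure D3:**
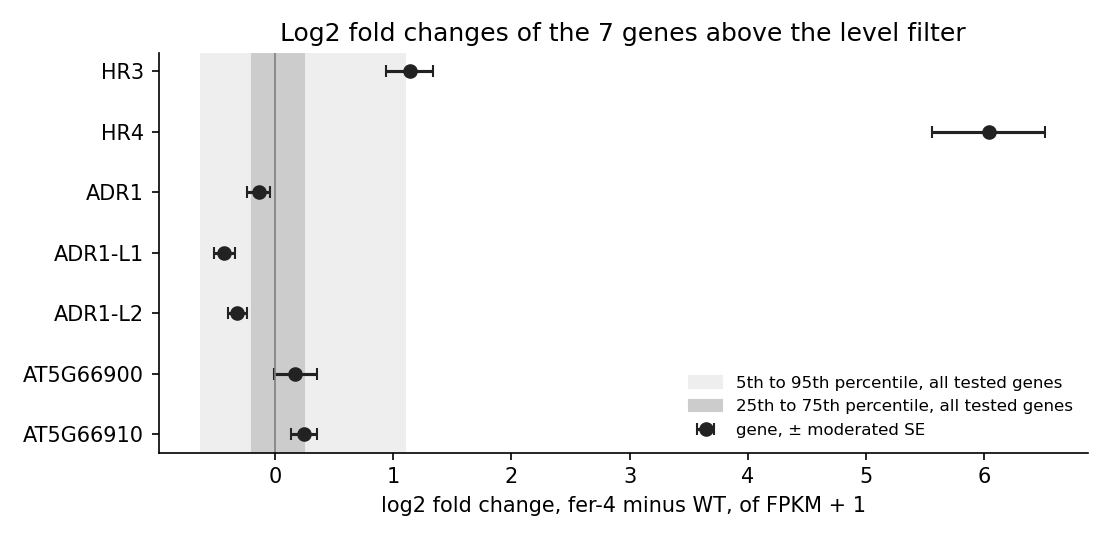
Log2 fold change (fer-4 minus WT, of FPKM + 1) with limma's moderated SE for the 7 genes above the level filter; grey bands hold the middle of all tested genes, from the 25th to the 75th percentile (-0.20 to 0.24) and from the 5th to the 95th (-0.63 to 1.10). HR4 at 6.04 lies far outside both bands, HR3 at 1.14 just outside the wider one, and the helper genes within it.

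The order of levels per length changed at its top. In WT it ran ADR1-L1, ADR1-L2, ADR1, AT5G66900, AT5G66910, HR4, HR3, HR2 and HR1, with means from 73.0 FPKM (ADR1-L1) to 0.0520 FPKM (HR1), and HR4 with HR3 and HR3 with HR2 overlapped between libraries. In fer-4 HR4 came first, above ADR1-L1 at 53.9 ± 0.863 FPKM, and AT5G66900 and ADR1 overlapped. HR4 made up 0.207% and 1.59% of the summed FPKM of the 9 genes in WT and 43.4% and 59.0% in fer-4. The summed ADR1 level was 6.14 and 5.60 times the summed NRG1 level in WT and 3.50 and 4.37 times in fer-4.

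Of the other relatives of these genes that were considered, AT3G26470 measured 15.8 and 15.2 FPKM in WT and 16.5 and 14.7 in fer-4 (0.01 ± 0.10, limma adjusted p = 0.962, with values on both sides of 0 over the alternatives). Its deposited locus also covers AT3G26480, listed at 0.0424 and 0.0845 FPKM in WT and 1.6 and 1.31 in fer-4. ADR1-L3 was listed in none of the 4 files. Its coding sequence holds 623 codons and that of AT5G66890 holds 415, against 787 to 857 in the helper genes above. Whether these shorter genes encode an RPW8 domain was not tested. AT5G66890, next to the NRG1 pair, was listed in fer-4 replicate 2 alone, at 0.103 FPKM, and its deposited locus also covers the kinase gene SNRK2.3. Of the 10 annotated genes beside the NRG1 pair, 8 were tested, and 1 rose and 2 fell, against 14.3% and 9.0% of all tested genes. AT5G66930 rose by 0.46 ± 0.10, and sks17 (-0.75 ± 0.09) and AT5G66960 (-0.83 ± 0.15) fell (limma adjusted p = 0.0206, 0.0027 and 0.0126).

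Among 4 genes of the EDS1 family, whose dimers link sensor NLRs to the helpers, 1 rose and 0 fell, with a median log2 fold change of -0.06 against 0.005 over all genes tested. EDS1 measured 16.1 and 17.7 FPKM in WT and 15.7 and 14.8 in fer-4 (limma adjusted p = 0.34). PAD4, the partner of the ADR1 helpers, measured 14.4 and 14.5 in WT and 13.8 and 15.6 in fer-4 (limma adjusted p = 0.913). SAG101, the partner of the NRG1 helpers, measured 23.9 and 21.8 in WT and 12.3 and 19.0 in fer-4 (-0.55 ± 0.19, limma adjusted p = 0.0933), and passed without fer-4 replicate 2 (-0.84, adjusted p = 0.00445). EDS1B, the neighbouring copy of EDS1, was listed at 0 and 0.0806 FPKM in WT and 1.79 and 3.19 in fer-4 (1.72 ± 0.24). It passed the level filter through its fer-4 levels, so only a rise could be called, and nothing is read from its call. The copies are similar, so how reads divide between them is uncertain.

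Of 17 tested sensor NLRs, which act upstream of the helpers, 10 rose and 1 fell, with a median of 0.47. Over all tested genes 14.3% rose and 9.0% fell, which is the background for every list here. The lists were chosen with earlier results of these data known, so nothing is read from their counts. For sensor NLRs, without WT replicate 1, 6 rose and 0 fell, and without WT replicate 2, 7 and 0; over all genes 1373 rose and 532 fell without the former, and 1227 and 461 without the latter. WRR4, for white rust resistance, was listed at 0 and 2.06 FPKM in WT and at 54.6 and 34.1 in fer-4 (4.66 ± 0.51, limma adjusted p = 0.00225). CHS3, whose gain-of-function allele causes autoimmunity in the cold, was listed at 0 and 0.326 in WT and at 10.6 and 12.1 in fer-4 (3.42 ± 0.18). CHS3 passed the level filter through its fer-4 levels, so only a rise could be called. CHS1, a truncated NLR, fell from 3.39 and 4.14 to 1.63 and 2.35 FPKM (-0.68 ± 0.18, limma adjusted p = 0.0408), and its call ended without WT replicate 1, WT replicate 2 or fer-4 replicate 1 and with no filter on low values. SNC1, RPP4 and RPP5, similar genes of the same cluster, were among the 10, and their shares of the reads are uncertain.

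**Figure D4:**
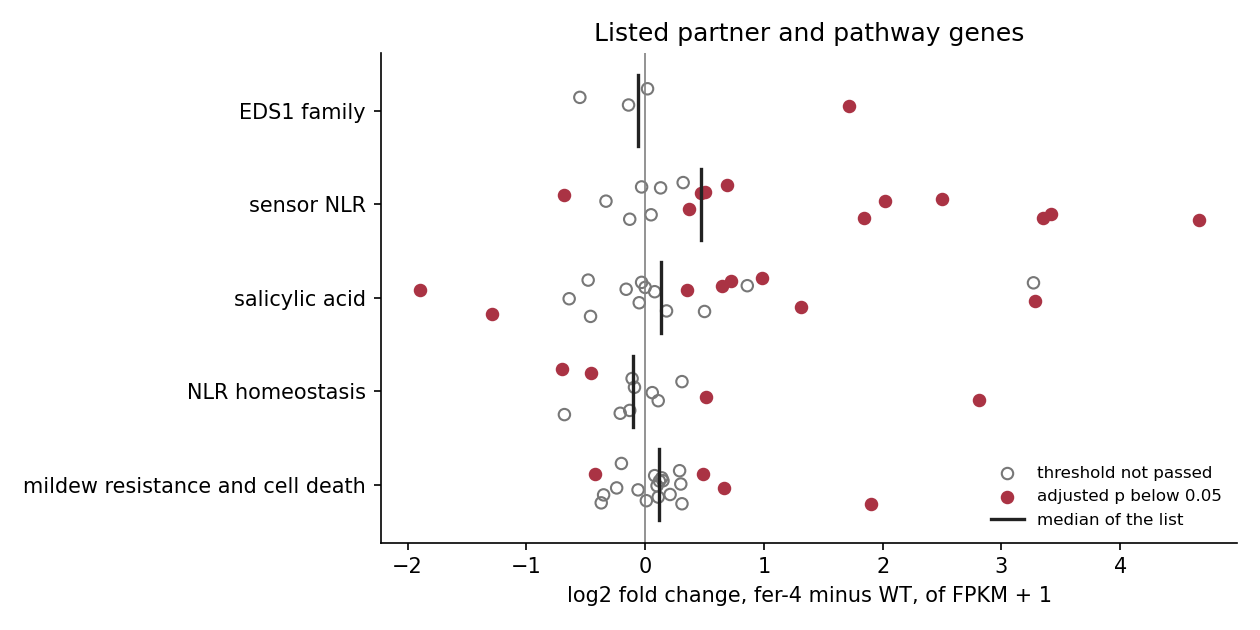
Log2 fold change (fer-4 minus WT, of FPKM + 1) of the tested genes of 5 lists, with 1 point per gene, filled where limma's adjusted p was below 0.05, and a bar at the median of the list. The sensor NLR list has its median at 0.47, and the other medians lie between -0.10 and 0.13.

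Helper NLRs drive salicylic acid synthesis and output during immunity. The list of these genes, which also takes in systemic immunity genes such as ALD1, counted 20 tested members. Of these, 6 rose and 2 fell, with a median of 0.13. Fewer were called without WT replicate 1 or WT replicate 2. Without fer-4 replicate 2 the balance turned, with more falls than rises among the calls. ICS1, the main enzyme of salicylic acid synthesis in defence, measured 8.33 and 7.17 FPKM in WT and 6.88 and 8.65 in fer-4 (limma adjusted p = 0.996). PR2 (3.28 ± 0.48) and the transporter gene EDS5 (1.31 ± 0.14, limma adjusted p = 0.00221) rose most, and ALD1 (-1.90 ± 0.18, limma adjusted p = 0.0013) and WRKY70 (-1.29 ± 0.22, limma adjusted p = 0.0105) fell most. PR2, with a WT mean of 0.977 FPKM, passed the level filter through its fer-4 levels. The call of PR2 ended without WT replicate 2 and that of WRKY70 when WT replicate 1 or WT replicate 2 was left out. PR1 measured 2.48 and 0.512 in WT and 4.88 and 82.4 in fer-4 (3.27 ± 1.16, limma adjusted p = 0.0954), and passed without fer-4 replicate 1 (5.18, adjusted p = 0.000276). In fer-4 replicate 2 the median gene of the list was 0.47 higher on the log2 scale than in fer-4 replicate 1, while the median of all tested genes was 0.013 higher and HR4 was 0.86 higher. Between the WT replicates the list was at -0.09 and HR4 at 1.40.

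Among 12 genes that keep NLR proteins in check, help them fold or act with them in signalling, 2 rose and 2 fell, with a median of -0.10. HSP90.2, a cytosolic chaperone that acts on NLRs with SGT1 and RAR1, measured 23.0 and 24.5 FPKM in WT and 181 and 166 in fer-4 (2.81 ± 0.09, limma adjusted p = 8.47e-05); it has near-identical copies in the genome. SRFR1, a repressor of NLR responses, rose (0.51 ± 0.09, limma adjusted p = 0.0133). BON1, a copine that holds SNC1 down, fell (-0.70 ± 0.10, limma adjusted p = 0.00496), as did NDR1, which several coiled-coil sensors need (-0.46 ± 0.09, limma adjusted p = 0.0152). Without WT replicate 1, 1 rose and 1 fell, and without WT replicate 2, 1 rose and 0 fell. SRFR1 and NDR1 each lost their call when WT replicate 1 or WT replicate 2 was left out, and BON1 when WT replicate 2 was.

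Of 20 genes of mildew resistance and cell death, 3 rose and 1 fell, near the shares of 14.3% and 9.0% over all genes, with a median of 0.12; without WT replicate 1, and likewise without WT replicate 2, 1 rose and 0 fell. ACD6, a membrane protein that promotes salicylic acid signalling, measured 10.9 and 9.22 FPKM in WT and 49.4 and 32.5 in fer-4 (1.90 ± 0.20, limma adjusted p = 0.00193). PEN3, a transporter of wall defence against mildew, rose from 236 and 247 to 410 and 359 FPKM (0.66 ± 0.11, limma adjusted p = 0.0105), and PMR5 also rose. MLO2, which powdery mildew fungi need to enter, fell from 123 and 120 to 95.4 and 86.1 FPKM (-0.42 ± 0.09, limma adjusted p = 0.0236). PEN3 and MLO2 each lost their call when WT replicate 1 or WT replicate 2 was left out, and MLO2 also without fer-4 replicate 2 and with the replicate block.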

How the data were processed

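Whole-seedling mRNA libraries were compared between 2 WT and 2 fer-4 samples. The authors deposited FPKM per gene in 1 file per library, per the file headers. Tools listed, without roles, per the submitters' processing notes are StringTie 1.3.3, HISAT2 2.0.5 and CASAVA, with TAIR10 as build. Nothing in the labels or headers states the annotation release, strand setting or treatment of multiply mapped reads. Files list only values above 0, so a missing gene was set to 0. Names and positions came from RefSeq TAIR10.1, matched by locus tag for 24039 of 24252 genes; 62.7% of matched loci share a boundary with an exon or coding part there.

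Values were fitted as log2(FPKM + 1) with limma-trend (limma 3.58.1, R 4.3.3) over 19183 genes whose mean reached 1 FPKM, without covariates, with Benjamini-Hochberg adjustment and a threshold of 0.05; the procedure was tested on simulated data. On this scale fold changes of low genes are understated. Exonic length inside the deposited locus, with the median of the lowest window of values taken as 1 fragment, turned FPKM into estimated fragments. Coding sequences were aligned globally with Biopython 1.88 and searched with BLAST 2.17.0. No protein sequences were used. The 9 genes and the lists were chosen with earlier results of these data known. Named in each list were up to 2 rises and 2 falls with the largest log2 fold change among called genes. EDS1, PAD4, SAG101, ICS1, PR1, FER, AT3G26470, ADR1-L3 and AT5G66890 were always named. SNC1, RPP4, RPP5, PMR5 and the neighbours MES10 and AT3G50490 were named after their values were seen. From the 81 list entries, 5 whose symbol was not in the annotation were dropped and 2 of the other 76 were below the filter. Alternatives changed the pseudocount, filter, scaling, trend and replicate block and left out each library.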

Additional observations from a re-analysis of the deposited data

How the results depend on the processing

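Leaving out 1 library in turn gave between 1688 and 4417 called genes over all genes (4469 with all 4), between 1 and 3 of the 9 genes (4 with all) and between 13 and 30 listed genes (28 with all); the lowest counts came without a WT library, 1905 and 1688 over all genes, 2 and 1 of the 9, and 13 and 13 listed genes. Every other alternative left these 3 counts within 1.5 times. Quantile normalization moved the share of higher calls over all genes from 61.4% to 49.2%; HR4 stayed at 5.85 and HR3 at 0.93. The pseudocount set the size of the HR4 and HR3 log2 fold changes, 7.05 and 1.89 with 0.1 FPKM and 4.53 and 0.44 with 5 FPKM.

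The direction turned for 4 genes that had not passed the threshold. AT5G66900 ranged from -0.11 to 0.45 without 1 library, PAD4 from -0.06 to 0.10, ICS1 from -0.15 to 0.14 and AT3G26470 from -0.07 to 0.09. With quantile normalization PAD4 was at -0.05 and AT3G26470 at -0.06, and ICS1 was at 0.01 with libraries scaled to the same sum and at 0.00 with a pseudocount of 5; the cause was not tested.

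The replicate numbers are not stated to pair libraries. Same-numbered libraries deviated in opposite directions (r = -0.22 across 19183 genes, which are not independent), so a crossed block was added after the data were seen. The replicate block gave 3772 calls over all genes, 3 of the 9 and 24 listed genes, and the crossed block 5681, 4 and 40. With the crossed block PR1 (limma adjusted p = 0.011) and SAG101 (limma adjusted p = 0.0267) passed the threshold, as in no other fit on all 4 libraries. HR1 and HR2 rest on at most 8.2 estimated fragments in any library, which limits what can be detected.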
